A study of Homo sapiens with 4 samples.

Results

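The genes described here serve protein translocation into the endoplasmic reticulum (ER) and the coats of the vesicles that run between the ER and the Golgi. They were taken by their names in the array annotation: every symbol that starts with SEC and a digit, or with SSR, SPCS, TMED or SRPR, together with the SAR1 GTPases, the subunits of the COPI coat and the proteins of the signal recognition particle. This gave 52 genes with 1 probe each, of 14297 gene probes on the array. Their levels were measured in K562, a human erythroleukemia cell line, as the ratio between cells treated for 4 h with AC-1041, a thalidomide analog, and control cells hybridised to the same array. The labels call the control cells untreated at 4 h, whereas the methods name a DMSO vehicle, and the labels give no dose. There were 4 two-colour arrays, with the treated RNA in Cy5 on arrays 1 and 2 and in Cy3 on arrays 3 and 4. All RNA came from this 1 cell line, and no source used here ties an array to a separate culture, so that the spread between arrays may be technical. Of 9 erythroid and K562 marker genes with a probe, 7 were well above background in both channels of all 4 arrays, as were 2 of 3 B cell, 1 of 2 monocyte, 1 of 2 epithelial, 0 of 3 T cell and 0 of 2 fibroblast markers.

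Secretory and membrane proteins enter the ER through a fixed series of machines. The signal recognition particle (SRP) binds the signal sequence as it leaves the ribosome and docks at the SRP receptor, the chain passes through the Sec61 channel with the TRAP complex beside it, and signal peptidase removes the signal sequence. Folded cargo leaves the ER in vesicles coated by COPII, which is built from the SAR1 GTPase, an inner layer of SEC23 and SEC24 and an outer layer of SEC13 and SEC31. COPI vesicles carry ER residents back from the Golgi, p24 proteins of the TMED family travel in both kinds of vesicle, and SEC22B, of the SEC22 family, acts in membrane fusion. When unfolded proteins collect in the ER, the transcription factors ATF6 and XBP1 are known to raise many genes of this pathway in mammalian cells.

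Of the 52 genes, 46 had a probe that was well above background, in either channel, on 2 or more arrays and could be tested. At 4 h, 7 of the 46 were higher in AC-1041-treated cells (SEC31A, SEC23B, SEC22C, SEC24B, SEC23A, SEC22A and SSR2) and 4 were lower (TMED2, SPCS2, SSR1 and SRPRB), at an adjusted p under 0.05 (limma with a treatment and a dye term, Benjamini-Hochberg over all 8852 probes tested). The 7 higher genes are 15.2% of the members, while 23.2% of all tested probes were higher, and the 4 lower genes are 8.70%, while 13.1% of all tested probes were lower. In the main fit both shares of the members thus lay below the background. This did not hold in every alternative. Changes were small: the fitted log2 ratios of the 46 genes ran from -0.36 to 0.63, and their median was 0.01, as it was for all tested probes. Among all probes called, 63.9% were higher, a share that became 79.5% when the arrays were centred on their median in place of the loess normalization, where 6 members were higher and 4 lower. With median centring, 25.8% of all tested probes were higher and 6.65% lower, so that the lower share of the members, 8.70%, lay above the background. Without array 1, 8 of 46 members were higher and 7 lower, beside 29.8% and 17.2% of all probes in that fit. Without array 3 the counts were 3 and 0 of 38, beside 13.3% and 4.68%. Without array 4 they were 2 and 0 of 38, beside 10.2% and 2.66%.

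Few of these calls had the same sign on every array. SEC23B, SEC22A and SSR2 were called higher and lay above 0 on all 4 arrays, which is 6.52% of the tested members beside 12.4% of all tested probes. TMED2 alone among the members was called lower and lay below 0 on all 4 arrays, which is 2.17% beside 6.25%. The other 7 called genes changed sign between arrays, in 6 of them with the dye that the treated RNA carried.

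**Figure D1:**
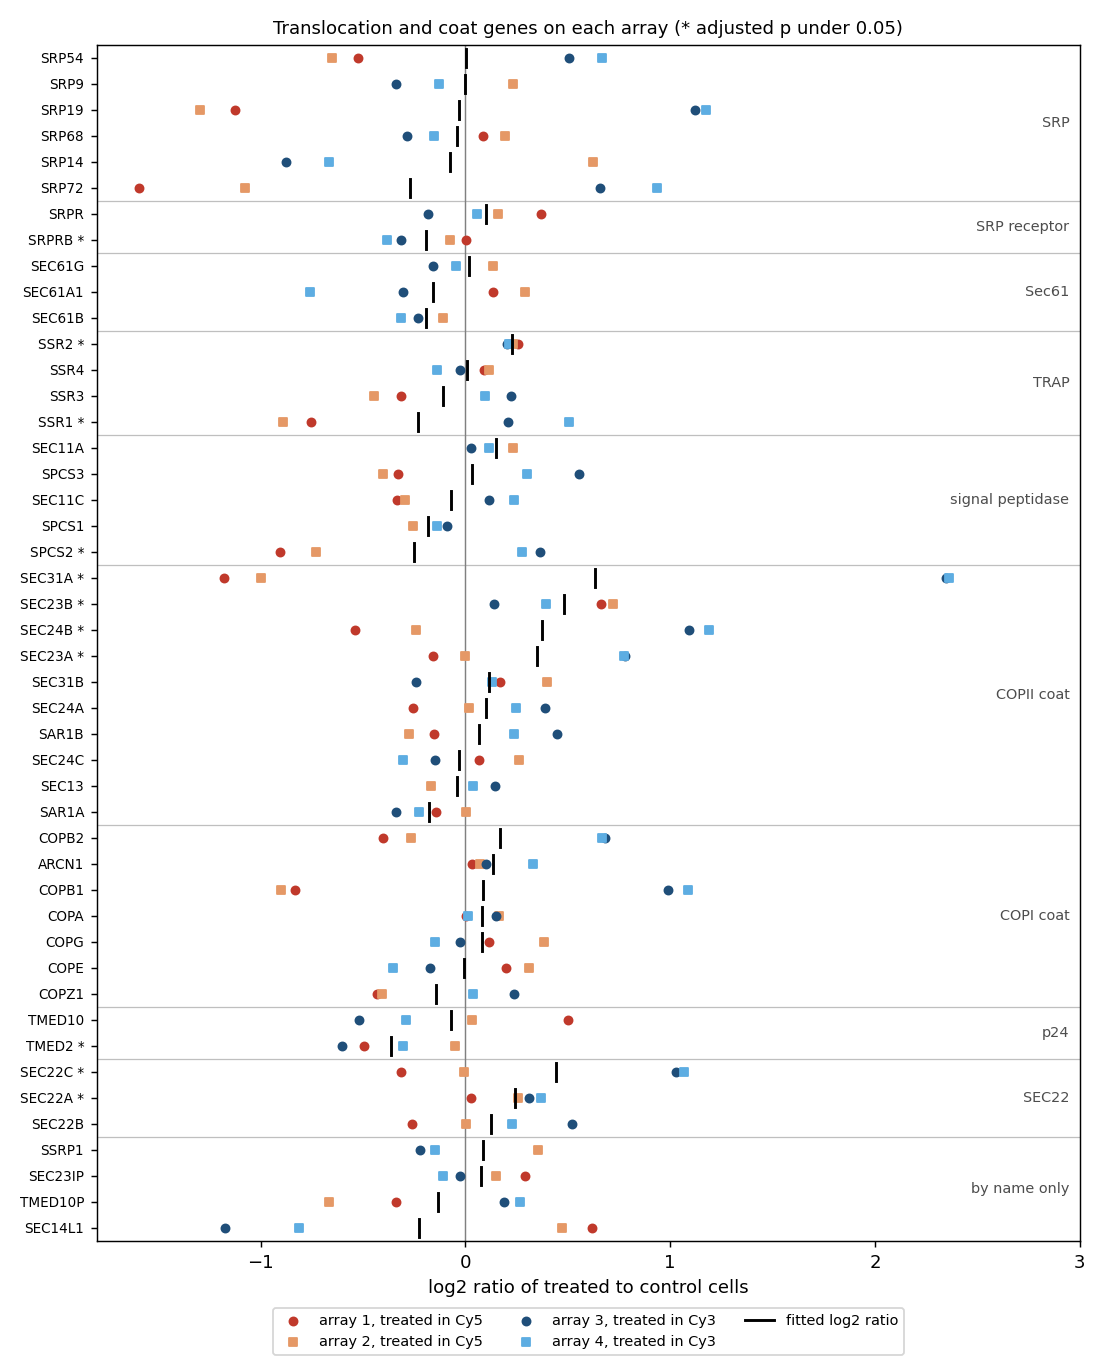
Log2 ratio of treated to control cells (horizontal axis) for each of the 46 tested genes, grouped by role, with 1 point per array and a black bar at the fitted log2 ratio. The points of SSR2 nearly coincide, whereas those of SEC31A, SRP19, SRP72 and COPB1 fall into a pair of arrays below 0 and a pair above 0.

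The arrays parted by dye orientation for most of these genes. The dye term of the fit was past an adjusted p of 0.05 (limma) for 28 of the 46 members, or 60.9%, beside 57.5% of all tested probes. Across the members, the log2 ratios of arrays 1 and 2 had a correlation of 0.909 and those of arrays 3 and 4 of 0.950, but arrays of different orientation had correlations from -0.690 to -0.651. Over all 8852 tested probes the same correlations were 0.807, 0.944 and from -0.278 to -0.115. The median of the members was -0.08 on the arrays with treated RNA in Cy5 and 0.11 on those with treated RNA in Cy3. The negative control spots had SDs from 226 to 308 intensity units on arrays 1 and 2 and from 27.8 to 40.5 on arrays 3 and 4, so that dye orientation and array background cannot be told apart. The dye term takes up the difference between orientations. Each standard error (SE) and adjusted p of the main fit thus rests on how far arrays of the same orientation differ. With limma, that spread was drawn towards a value pooled over all tested probes. An SE is thus not the spread of 1 gene alone. Each SD, in contrast, is over all arrays of a gene. With 1 array left out, the spread comes only from the orientation that keeps both its arrays. Counts and adjusted p-values, above and below, then also change with which pair remains. Without the dye term, 0 members were higher and 0 lower by limma, 2 of them being under an unadjusted p of 0.05. For 1 gene on 4 arrays, an exact permutation of the signs (two-sided) reaches no p below 0.125.

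**Figure D2:**
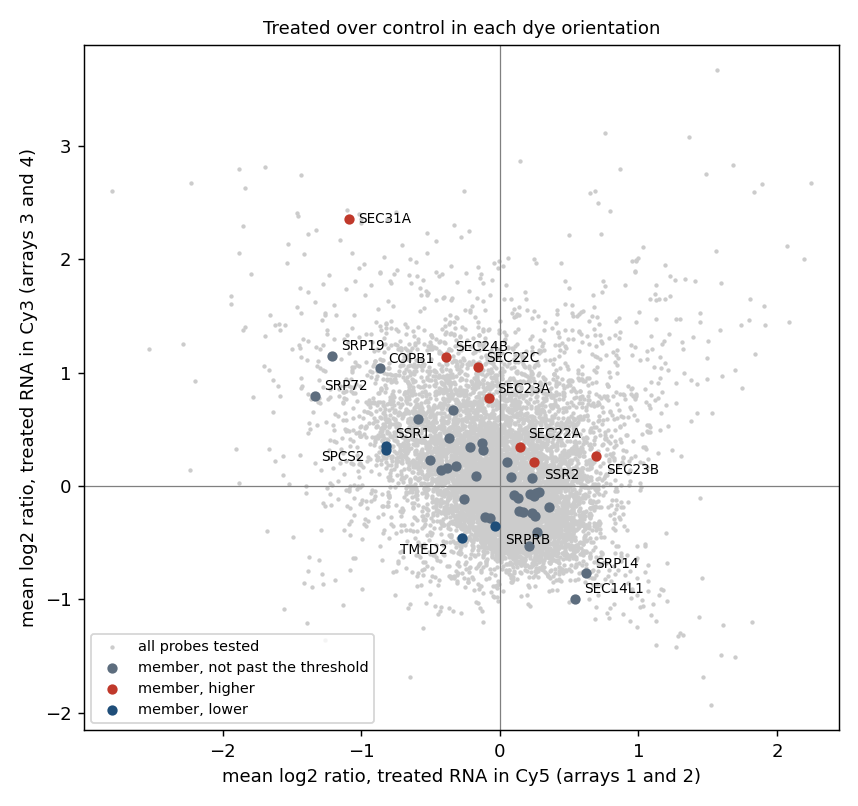
Mean log2 ratio with the treated RNA in Cy5 (horizontal axis, arrays 1 and 2) against that with the treated RNA in Cy3 (vertical axis, arrays 3 and 4) for the 8852 tested probes in grey and the 46 members in colour by call. SEC23B, SEC22A and SSR2 are the called members in the quadrant above 0 in both orientations, and TMED2 and SRPRB those in the quadrant below 0 in both.

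The base composition of the probe moved with these values. The 60-base probes of the tested members held from 21.7% to 55.0% G and C, with a median of 43.3%, the same as over all tested probes. Across the 46 members, GC content had a correlation of 0.685 with the difference between the orientations (log2 ratio in Cy5 minus in Cy3) and of -0.411 with the fitted log2 ratio. Over all 8852 probes these were 0.605 and -0.238, and among the 45 members other than SEC31A, whose probe has the lowest GC content, 0.589 and -0.255. These are descriptions across probes that share their arrays, and the part of base composition in the calls was not tested. When the relation to GC content was fitted out of each array, an alternative chosen after seeing the data, the same 7 genes were higher and 7 were lower, the latter being the 4 above with SRP72, COPZ1 and SSR3. That fit called 21% of all probes higher and 14.4% lower.

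**Figure D3:**
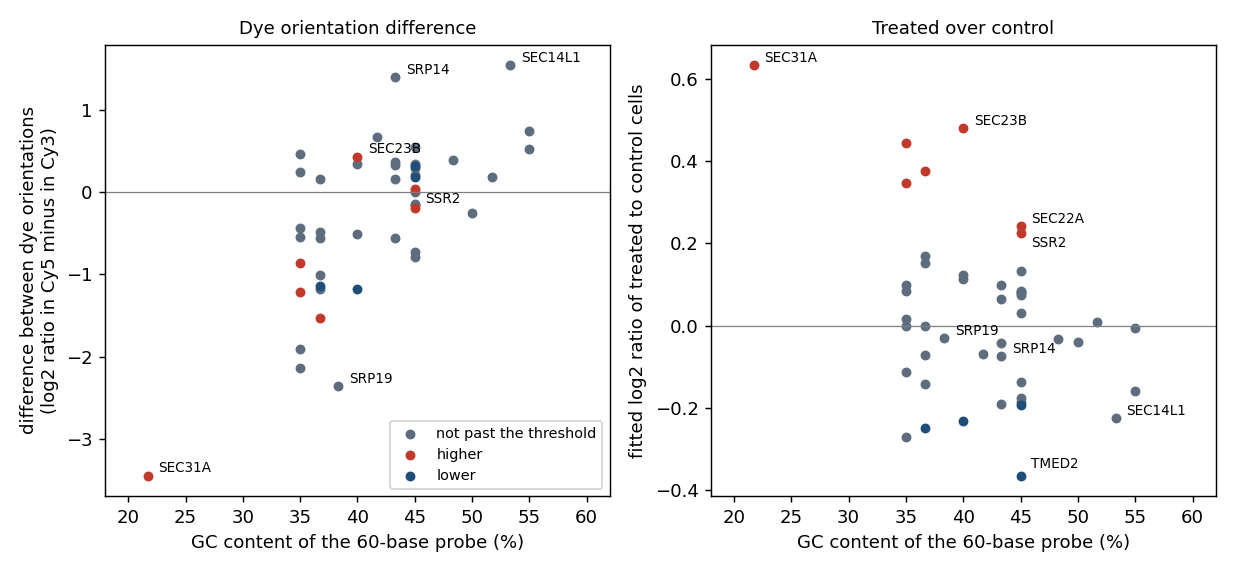
GC content of the probe in percent (horizontal axis, both panels) against the difference between the dye orientations (left panel, log2 ratio in Cy5 minus in Cy3) and against the fitted log2 ratio of treated to control cells (right panel) for the 46 tested members, coloured by call. SEC31A, at 21.7%, lies at the end of both panels, and SEC22A, SSR2 and TMED2 lie at 45.0%.

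Each dye orientation was also fitted alone with limma, an alternative chosen after seeing the data that rests on 2 arrays each. With the treated RNA in Cy5, where 38 members could be fitted, 2 were higher (SEC23B and SEC14L1) and 10 lower. Of all probes in that fit, 13.2% were higher and 17.1% lower. With it in Cy3, 20 of 46 were higher and 12 lower, beside 39.5% and 30.6% of all probes. Among the 38 members fitted in both, SEC23B was the only one called in the same direction in both orientations. It had a log2 ratio of 0.69 and an adjusted p of 0.00986 in Cy5, and of 0.27 and 0.0106 in Cy3 (limma). The share of all probes called in the same direction in both was not counted, so that this describes 1 gene only.

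The promoters of a minority of these genes hold a sequence that the choice by name did not use. The letters TGACGTGG, the core of the UPR element that XBP1 and ATF6 are known to bind, were searched on both strands of the 300 bases that RefSeq gives for each start site on GRCh38.p14 (250 before to 50 after). Promoters were found for 48 of the 52 members. Of these 48 genes, 8 (16.7%) held the element, compared with 0.927% of 27305 genes. Per promoter the shares were 14.1% of 64 and 0.729% of 35116. The 8 genes come from the SRP, the TRAP complex and both coats, and the stretches are shown so that the element can be read in its setting; the other 40 genes do not hold it. Each is written 5′ to 3′ on the strand of its gene with the element, in either orientation, in capitals; COPB2 holds it at 2 places.
COPA, chr1:160343221-160343265, minus strand: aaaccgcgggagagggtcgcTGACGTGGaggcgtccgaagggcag
COPB1, chr11:14499832-14499879, minus strand: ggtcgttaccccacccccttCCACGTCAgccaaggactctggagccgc
COPB2, chr3:139389816-139389863, minus strand: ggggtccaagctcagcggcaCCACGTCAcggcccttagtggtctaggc
COPB2, chr3:139389623-139389670, minus strand: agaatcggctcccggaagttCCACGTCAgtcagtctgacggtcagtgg
SEC23A, chr14:39103212-39103259, minus strand: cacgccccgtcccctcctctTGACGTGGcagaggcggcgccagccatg
SEC24A, chr5:134648586-134648633, plus strand: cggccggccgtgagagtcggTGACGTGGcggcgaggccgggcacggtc
SRP19, chr5:112861155-112861202, plus strand: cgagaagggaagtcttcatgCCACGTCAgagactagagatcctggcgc
SSR3, chr3:156554139-156554186, minus strand: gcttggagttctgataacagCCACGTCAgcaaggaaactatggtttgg
SSR4, chrX:153794519-153794566, plus strand: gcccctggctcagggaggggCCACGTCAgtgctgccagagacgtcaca

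Counted from the start site as 0, the element began at 5 in COPA, -48 in COPB1, -196 and -3 in COPB2 (-163 and 30 from its other start site), -4 in SEC23A, -179 in SEC24A, -112 in SRP19, -41 in SSR3 and -129 in SSR4. On the arrays these 8 genes had a median log2 ratio of 0.08, and 1 of them, SEC23A, was higher and 0 were lower by limma. Over all 88 tested probes of genes with the element the median was 0.06, with 29.5% higher and 11.4% lower, and over the 6827 tested probes with a promoter entry it was 0.02, with 23.8% higher and 12.9% lower. Other letters were looked for in the same windows. No member held the ER stress response element (CCAAT, 9 bases, CCACG; 0.0769% of all promoters), whose last letters overlap the reverse of the element above, nor its second form (ATTGG, any base, CCACG; 0.0541%), nor the cAMP response element (TGACGTCA; 1.85%). A CCAAT box was in 22 of the 48 genes (45.8%), compared with 39.7% of all genes. A match to letters is a description of the sequence, not a binding site.

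The 4 genes that were called with the same sign on all arrays hold no TGACGTGG in their windows. Their 250 bases before a start site are shown because of that shared sign. CCAAT boxes, on either strand, are in capitals. For SEC23B the second of 2 start sites is given, since the 250 bases before the first hold 0 CCAAT boxes and those before the second hold 2.
SEC22A, chr3:123201693-123201942, plus strand: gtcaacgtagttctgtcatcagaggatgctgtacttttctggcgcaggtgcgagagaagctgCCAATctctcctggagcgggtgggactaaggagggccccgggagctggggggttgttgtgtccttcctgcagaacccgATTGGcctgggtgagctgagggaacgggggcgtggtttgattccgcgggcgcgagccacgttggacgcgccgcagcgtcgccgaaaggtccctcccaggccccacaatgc
SEC23B, chr20:18507690-18507939, plus strand: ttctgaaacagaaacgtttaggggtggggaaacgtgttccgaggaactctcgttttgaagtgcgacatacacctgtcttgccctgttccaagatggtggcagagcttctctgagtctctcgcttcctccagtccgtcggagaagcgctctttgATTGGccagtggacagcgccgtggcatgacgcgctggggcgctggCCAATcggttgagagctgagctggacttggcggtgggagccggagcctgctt
SSR2, chr1:156020952-156021201, minus strand: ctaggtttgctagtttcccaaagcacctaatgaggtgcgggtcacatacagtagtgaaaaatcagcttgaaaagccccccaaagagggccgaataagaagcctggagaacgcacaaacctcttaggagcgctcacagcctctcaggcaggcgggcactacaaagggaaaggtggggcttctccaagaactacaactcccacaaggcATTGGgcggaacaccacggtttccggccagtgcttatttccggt
TMED2, chr12:123584302-123584551, plus strand: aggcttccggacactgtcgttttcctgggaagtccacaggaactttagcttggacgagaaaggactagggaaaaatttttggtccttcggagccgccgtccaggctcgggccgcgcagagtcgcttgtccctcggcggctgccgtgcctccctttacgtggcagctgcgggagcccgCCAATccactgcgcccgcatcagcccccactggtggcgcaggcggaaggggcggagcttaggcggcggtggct

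Among the SRP proteins, 6 were tested, 0 were higher and 0 lower by limma, and 1 (SRP72) had an unadjusted p under 0.05. The highest fitted log2 ratio was that of SRP54, the GTPase subunit that binds the signal sequence, with -0.52 and -0.65 on arrays 1 and 2 and 0.51 and 0.67 on arrays 3 and 4. These values cancelled to 0.00 ± 0.07 (SE). The lowest was that of SRP72, which pairs with SRP68 in the particle, with -1.59, -1.08, 0.66 and 0.93 on arrays 1 to 4. Its fitted log2 ratio was -0.27 ± 0.10 (SE) with an adjusted p of 0.0627 (limma), which became 0.000817 without array 2. SRP19, which helps assemble the particle, was the widest apart of the 6, with -1.12 and -1.29 in Cy5 and 1.12 and 1.18 in Cy3, and a fitted value of -0.03 ± 0.07 (SE). SRP14, of the domain that slows elongation, ran the other way, with 0.62 on array 2, -0.88 on array 3 and -0.67 on array 4. Its spot on array 1 was marked as an outlier by the image software and left out, as were those of SRP9, SEC61B, SEC61G, SEC11A, SPCS1, SEC13 and SSRP1. SRP9 and SRP68 had fitted values of 0.00 and -0.04.

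Both subunits of the SRP receptor were tested and 1 was lower. SRPRB, the membrane-anchored beta subunit, had log2 ratios of 0.00, -0.07, -0.32 and -0.38 on arrays 1 to 4. Array 1 lay just above 0 and the other arrays below it. The fitted value was -0.19 ± 0.06 (SE) and the adjusted p 0.0463 (limma), which rose to 0.0762 without array 2, 0.171 without array 3 and 0.267 without array 4. It was 0.145 with median centring, and between 0.0524 and 0.0619 with dim probes or outlier spots kept and with either pairing of the arrays. The alpha subunit, listed under its older name SRPR and now SRPRA, was at 0.37, 0.16, -0.18 and 0.06, with a fitted value of 0.10 ± 0.07 (SE) and an adjusted p of 0.326.

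Of the Sec61 channel, 3 of 4 genes were tested, 0 were higher and 0 lower by limma, and 0 had an unadjusted p under 0.05. SEC61A1, the pore-forming subunit, was at 0.13, 0.29, -0.30 and -0.76 on arrays 1 to 4, with a fitted log2 ratio of -0.16 ± 0.09 (SE). The lowest of the channel was SEC61B, a small tail-anchored subunit, with -0.11, -0.23 and -0.31 on arrays 2 to 4. All its measured arrays lay below 0, with a fitted value of -0.19 ± 0.08 (SE) and an adjusted p of 0.116 (limma), which was 0.0455 when array 1 was left out of the whole fit. SEC61G, the gamma subunit, had the highest fitted value, 0.02 ± 0.08 (SE), from 0.13, -0.16 and -0.05. SEC61A2, a second form of the pore-forming subunit, was well above background in the treated channel of 1 array and in the control channel of 0, and was not tested. SEC62, which helps post-translational entry, stands in the files under the older name TLOC1 and so was not among the 52; its log2 ratio was -0.10 ± 0.06 (SE) with an adjusted p of 0.260.

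The TRAP complex was split, with SSR2 higher, SSR1 lower and the other 2 of 4 genes not past the threshold. SSR2, the beta subunit, had log2 ratios of 0.25, 0.23, 0.20 and 0.21 on arrays 1 to 4, a mean of 0.23 ± 0.02 (SD, n = 4 arrays). No other member that was called had values so close together, and the arrays did not part by dye. In fold this was 1.17, with an adjusted p of 0.0246 (limma), which rose to 0.141 without array 3, 0.175 without array 4, 0.107 from the processed signals of the image software and 0.192 with median centring. SSR1, the alpha subunit, was at -0.75 and -0.89 on arrays 1 and 2 and at 0.21 and 0.51 on arrays 3 and 4. Its fitted log2 ratio was -0.23 ± 0.07 (SE) with an adjusted p of 0.0437, which rose to 0.0628 without array 2, 0.290 without array 3, 0.0958 without array 4, 0.0699 from the processed signals, 0.187 with median centring and 0.0557 with outlier spots kept. SSR4, the delta subunit, was at 0.01 ± 0.06 (SE). SSR3, the gamma subunit, was at -0.11 ± 0.07 (SE), with an adjusted p of 0.224.

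Signal peptidase had 5 tested genes, of which 0 were higher and 1 lower. SPCS2, an accessory subunit, had log2 ratios of -0.91 and -0.73 on arrays 1 and 2 and 0.36 and 0.28 on arrays 3 and 4. The 2 orientations did not overlap, and the fitted value was -0.25 ± 0.07 (SE) with an adjusted p of 0.0225 (limma), which rose to 0.111 without array 3 and 0.186 without array 4. SEC11A, a catalytic subunit, had the highest fitted value of the complex, 0.15 ± 0.08 (SE), from 0.23, 0.03 and 0.11 on arrays 2 to 4. Its paralog SEC11C was at -0.07, and the accessory subunits SPCS1 and SPCS3 at -0.18 and 0.03. The adjusted p-values of these 4 genes lay between 0.122 and 0.765.

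The COPII coat held 4 of the 7 higher genes. Of its 11 genes, 10 were tested, and 4 were higher and 0 lower by limma (1, SAR1A, was lower at an unadjusted p under 0.05). Of all tested probes, 23.2% were higher. SEC23B alone of the 10 was called higher with all 4 arrays above 0, as were 12.4% of all tested probes. The median log2 ratio of the 10 was 0.11. The count of 4 was 2 without array 3 and 2 without array 4. SEC23B, an inner-layer subunit and GTPase-activating protein of SAR1, had log2 ratios of 0.66, 0.72, 0.14 and 0.39 on arrays 1 to 4. All 4 arrays lay above 0, with the arrays in Cy5 the higher ones. The mean was 0.48 ± 0.27 (SD, n = 4 arrays), a 1.39-fold higher level with a 95% interval of the log2 ratio from 0.32 to 0.64 and an adjusted p of 0.00168 (limma). Leaving out any 1 array kept it past the threshold, with log2 ratios from 0.42 to 0.54. Its probe aligns to hg18 at chr20:18479782-18482900 on the plus strand, a span of 3119 bases for a probe of 60.

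SEC23A, its paralog, was at -0.16 and 0.00 on arrays 1 and 2 and at 0.78 and 0.77 on arrays 3 and 4. It lay above 0 only on the arrays with treated RNA in Cy3, and its fitted log2 ratio was 0.35 ± 0.07 (SE) with an adjusted p of 0.00501 (limma), 0.0620 without array 3 and 0.0724 without array 4. The probes of SEC23A and SEC23B share no run of more than 5 bases. SEC24B, a cargo-binding subunit, was at -0.54, -0.24, 1.09 and 1.19, below 0 in Cy5 and above 0 in Cy3. Its fitted value was 0.38 ± 0.07 (SE) with an adjusted p of 0.00627, 0.0560 without array 3 and 0.0911 without array 4. The largest fitted value of all members was that of SEC31A, the outer-layer subunit, with -1.18 and -0.998 on arrays 1 and 2 and 2.35 and 2.36 on arrays 3 and 4. Its fitted log2 ratio of 0.63 ± 0.07 (SE), at an adjusted p of 0.000387, is the mean of a lower level in Cy5 and a higher level in Cy3, each past the threshold when fitted alone (adjusted p 0.00442 and 4.81e-27), and its SD over the 4 arrays was 1.99. With probe GC content fitted out, its log2 ratio fell to 0.37, under the 0.42 of SEC23B in the same fit. The SEC31A probe is 1 of 6 member probes for which the array annotation lists no RefSeq transcript, so its name rests on that annotation.

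The other COPII genes were not past the threshold. The lowest was SAR1A, a GTPase that starts the coat, with -0.14, 0.00, -0.34 and -0.23 on arrays 1 to 4. Its fitted log2 ratio was -0.18 ± 0.07 (SE) with an adjusted p of 0.0719 (limma), which was 0.0342 without array 2. SAR1B was at 0.06, SEC24A at 0.10, SEC24C at -0.03, SEC31B at 0.11 and SEC13, an outer-layer subunit that is also part of the nuclear pore, at -0.04, all with adjusted p-values of 0.319 or more. SEC24D was not well above background in either channel of any array and was not tested.

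The COPI coat stayed close to 0. All 7 of its genes were tested, 0 were higher and 0 lower by limma, 1 (COPB2) had an unadjusted p under 0.05, and the median log2 ratio was 0.08. COPB2, the beta-prime subunit, was at -0.40, -0.27, 0.68 and 0.67 on arrays 1 to 4, with a fitted value of 0.17 ± 0.06 (SE) and an adjusted p of 0.0729, which was 0.0316 without array 1. COPZ1, the zeta subunit, was the lowest, at -0.43, -0.41, 0.24 and 0.04, with a fitted value of -0.14 ± 0.07 (SE) and an adjusted p of 0.137. The values of both genes parted by dye orientation. COPB1, the beta subunit, did so most of the 7, with -0.83 and -0.90 in Cy5 and 0.99 and 1.09 in Cy3. COPA and ARCN1, the alpha and delta subunits, lay above 0 on all 4 arrays, from 0.00 to 0.16 and from 0.03 to 0.33, at adjusted p-values of 0.375 and 0.162. COPG and COPE, the gamma and epsilon subunits, had fitted values of 0.08 and 0.00. The 95% intervals of the 7 log2 ratios lay between -0.30 and 0.32.

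Of the p24 cargo receptors, TMED2 and TMED10 were taken by name and tested, and TMED2 was lower. TMED2 had log2 ratios of -0.50, -0.05, -0.60 and -0.31 on arrays 1 to 4, a mean of -0.36 ± 0.24 (SD, n = 4 arrays). All arrays lay below 0, with 1 array of each orientation among the 2 lowest. The level in treated cells was 0.777 of that in control cells, with an adjusted p of 0.0180 (limma), which rose to 0.154 without array 3, 0.0741 without array 4, and 0.0587 from the processed signals. TMED10, its usual partner in p24 complexes, was at 0.50, 0.03, -0.52 and -0.29, with a fitted value of -0.07 ± 0.09 (SE) and an adjusted p of 0.586.

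Of the 3 SEC22 genes, 2 were higher. SEC22A had log2 ratios of 0.03, 0.26, 0.31 and 0.37 on arrays 1 to 4, a mean of 0.24 ± 0.15 (SD, n = 4 arrays). All arrays lay above 0, array 1 the nearest to it. The fold was 1.18 and the adjusted p 0.0284 (limma), which was 0.0611 without array 2, 0.135 without array 3 and 0.199 without array 4. SEC22C was at -0.31, -0.01, 1.03 and 1.07, above 0 only with treated RNA in Cy3. Its fitted value was 0.44 ± 0.07 (SE) with an adjusted p of 0.00289, which was 0.0548 without array 4. SEC22B, the SNARE of ER to Golgi fusion, was at -0.26, 0.00, 0.52 and 0.23, with a fitted value of 0.12 ± 0.08 (SE) and an adjusted p of 0.260.

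The names also took in 8 genes that belong to none of these machines or act beside them, of which 4 were tested, 0 were higher and 0 lower by limma, and 1 (SEC14L1) had an unadjusted p under 0.05. SEC14L1, of a family of lipid-binding proteins, was at 0.62, 0.47, -1.17 and -0.81 on arrays 1 to 4, so that it was the lowest of the 4, at -0.22 ± 0.08 (SE) with an adjusted p of 0.0592, which was 0.00818 without array 1. SSRP1, a subunit of a histone chaperone, was the highest, at 0.36, -0.22 and -0.15 on arrays 2 to 4 and a fitted value of 0.08 ± 0.08 (SE). SEC23IP, which binds SEC23, was at 0.08, and TMED10P, a pseudogene of TMED10 that may share signal with it, at -0.14, with adjusted p-values of 0.403 and 0.194, the latter 0.0218 without array 1. SEC14L2, SEC14L3, SEC14L4 and SEC14L5 were not well above background in either channel of any array.

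Genes that work next to these machines were read from lists made for this comparison. Their counts stand beside 23.2% higher and 13.1% lower among all tested probes. Of 10 tested partners of the translocon, 2 were higher and 0 lower by limma (3 each at an unadjusted p under 0.05): TRAM2, a membrane protein near the channel, at 0.17, 0.28, 0.22 and 0.35 on arrays 1 to 4, and HSPA5, the ER chaperone that draws chains inwards, at -0.32, -0.22, 0.77 and 0.92. Of 7 subunits of the oligosaccharyltransferase, which adds N-glycans beside the channel, 0 were higher, 0 lower by limma and 0 under an unadjusted p of 0.05, with log2 ratios from -0.25 to -0.07. Among 15 COPII regulators and cargo receptors, 1 was higher, the cargo receptor CNIH, at -0.75, -0.67, 1.31 and 1.08. TRAM2 was the only one of these 3 higher genes above 0 on all 4 arrays. The adjusted p (limma) was 0.0197 for TRAM2, 0.0120 for HSPA5 and 0.0296 for CNIH, and without array 3 or array 4 it was 0.0913 and 0.184, 0.0669 and 0.141, and 0.218 and 0.0952. For CNIH it was also 0.0604 from the processed signals, 0.153 with median centring and 0.146 with probe GC content fitted out, where its log2 ratio was 0.14 in place of 0.24.

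The 12 regulators of COPI and KDEL receptors held 1 higher and 1 lower gene. ARFGAP3, a GTPase-activating protein of ARF1 that acts with the COPI coat, was at 0.66, 0.58, 0.84 and 1.02 on arrays 1 to 4, with a log2 ratio of 0.77 ± 0.07 (SE) and an adjusted p of 0.000173 (limma). The highest of the 46 tested members, SEC31A, was at 0.63. ARF3, a small GTPase of the Golgi, was at -0.24, -0.06, -0.48 and -0.60, with a log2 ratio of -0.34 ± 0.07 (SE) and an adjusted p of 0.00651, which rose to 0.0528 without array 3, 0.0968 without array 4 and 0.0971 with median centring, where the log2 ratio was -0.21.

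The list with the most calls was that of the SNAREs and tethers of ER to Golgi transport. In it, 8 of 16 tested genes were higher and 1 lower, and 5 of the 8 lay above 0 on all 4 arrays. Of all tested probes, 23.2% were higher and 13.1% lower, and 12.4% were called higher with all 4 arrays above 0. This list was chosen with earlier results of these data known. Its median log2 ratio was 0.21. GOLGA2, a Golgi tether, was at 0.01, 0.33, 0.85 and 0.97 on arrays 1 to 4, with a log2 ratio of 0.54 ± 0.08 (SE). STX5, the Golgi syntaxin that pairs with SEC22B, was at 0.34, 1.15, 0.23 and 0.17, with array 2 above the others, and 0.47 ± 0.12 (SE). BNIP1, an ER SNARE, was at 0.39, 0.57, 0.38 and 0.15, or 0.38 ± 0.07 (SE). TRAPPC2, a tether subunit, was at -0.11, -0.18, 0.82 and 0.99, or 0.38 ± 0.07 (SE), with the sign following the dye. Their adjusted p-values (limma) were 0.00132, 0.0186, 0.00574 and 0.00373; that of STX5 rose to 0.123 without array 3 and 0.132 without array 4, that of BNIP1 to 0.0795 without array 3 and that of TRAPPC2 to 0.0725 without array 4. The 8 higher genes were 2 without array 3, 2 without array 4 and 5 from the processed signals. These lists were not compared with the 52 genes by a test.

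On the same arrays, all 6 tested genes of the ATF4 and CHOP arm of the ER stress response were higher, each on all 4 arrays, with a median log2 ratio of 1.29. Of 14 tested genes of the ATF6 and XBP1 arm, 5 were higher, 4 of them above 0 on all 4 arrays, and 1 was lower, with log2 ratios from -0.19 to 2.28 around a median of 0.03. Among all tested probes, 23.2% were higher, 12.4% were called higher with all 4 arrays above 0, and 13.1% were lower. HSPA5, HYOU1 and SERP1 are also among the translocon partners, so that HSPA5 is counted as higher in both lists.

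**Figure D4:**
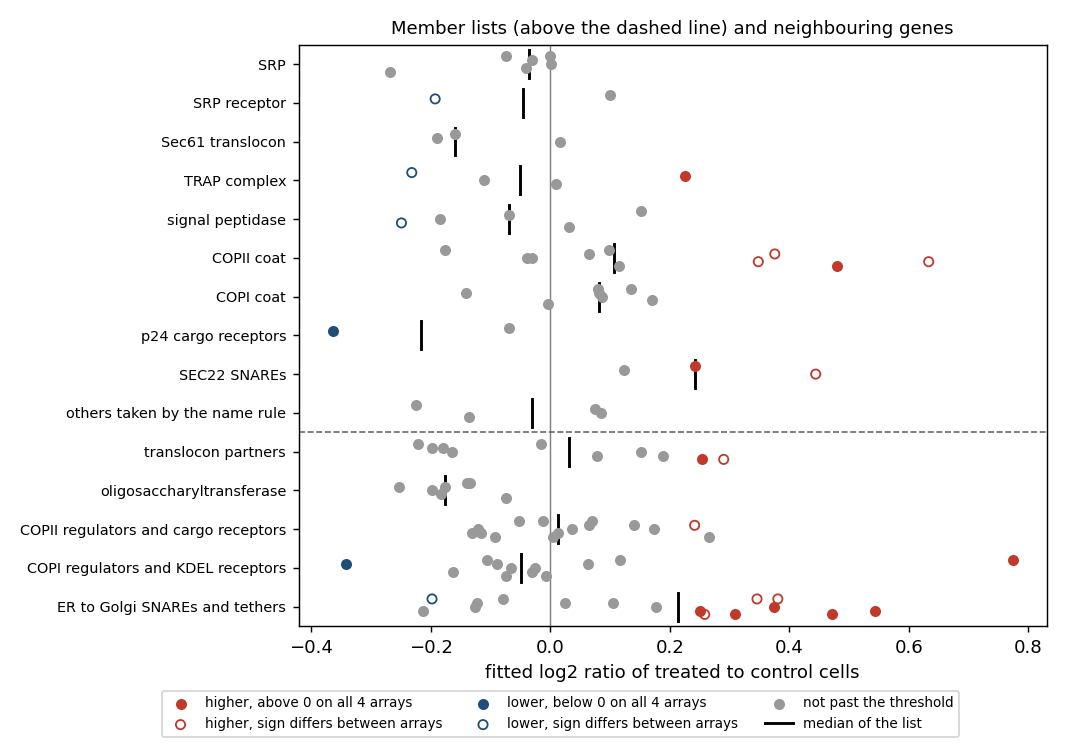
Fitted log2 ratio of treated to control cells (horizontal axis) for each tested gene of the member lists, above the dashed line, and of the 5 neighbouring lists, below it (the ER stress arms are not plotted); colour gives the call, an open symbol marks a called gene whose sign differed between arrays, and the black bar is the median of the list. Of the genes plotted, those of the COPII coat and the SNAREs and tethers hold most of the higher calls, and ARFGAP3, at 0.77, lies farthest from 0.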

How the data were processed

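Total RNA of K562 cells was amplified, labelled with Cy5 or Cy3 and hybridised to 4 Agilent arrays of 14833 features, with treatment swapped between dyes. The authors deposited raw spot and local background intensities from Feature Extraction 9.5.1.1, not normalized, with its processed signals. The deposited files also hold log10 ratios of the processed signals, and the authors' series table holds the same log10 ratios, turned to treated over control. Dye and direction come from the labels.

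Intensities were background-corrected with normexp (offset 50), loess-normalized within each array (span 0.3, control spots at weight 0) and turned to treated over control. Outlier spots were left out (1.57% to 8.08% of probes an array). Probes well above background, in either channel, on 2 or more arrays were fitted with limma 3.58.1 in R 4.3.3, with a dye term and Benjamini-Hochberg adjustment. No spot was saturated (0 on each array), and the number of arrays limits the precision. The members and gene lists were chosen with earlier results of these data known. Values on each array are given for called members and for the highest and lowest of each role list, with a few added for their spread between dyes, chosen after their values were seen. Genes were named through RefSeq accessions (12002 of 14297 probes). The limma step was tested on simulated data. The alternatives were other background, normalization, filter, threshold and dye settings, pairs of arrays averaged, and arrays left out.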

Additional observations from a re-analysis of the deposited data

How the results depend on the processing

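Every SE given here, and each adjusted p other than those of the single-orientation fits and of the averaged pairs, rests on the dye term. Without it, 0 members were higher and 0 lower (2 under an unadjusted p of 0.05, limma), and 50 and 4 of all probes. Median centring left 589 of all probes lower, and keeping outlier spots left 2 members lower. A filter that asked for signal above background in both channels of every array left 1274 of 5587 probes higher. That is 22.8%, beside 23.2% in the main fit. At an adjusted p under 0.01, 5 members were higher and 0 lower, and 1245 and 451 of all probes. With 1 array left out in turn, which leaves 1 residual degree of freedom, from 2 (without array 4) to 8 members were higher and from 0 (without array 3 or 4) to 7 (without array 1) lower, from 819 to 2630 and from 213 to 1515 of all probes, and from 15 to 31 members had a dye difference. The median log2 ratio of the members stayed within 1 SD between arrays (0.13) of the main value in all 19 alternatives. That SD itself holds the difference between dye orientations, so that it is a wide measure and says little about stability. The median was 0.01 in the main fit, -0.10 with arrays in Cy5 alone (38 members) and 0.11 with arrays in Cy3 alone.

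Chosen after seeing the data, fitting out probe GC content gave 7 of 46 members lower, with 1279 of 8852 probes. Arrays in Cy5 alone gave 2 of 38 members higher and 10 lower, with 1057 and 1368 of 8018 probes. Arrays in Cy3 alone gave 20 and 12 of 46 members, with 3498 and 2712 of 8853 probes. Among the members, a value past the threshold in either fit changed sign only in these single-orientation fits; members that were not past it also changed sign elsewhere (SRP54, near 0, in 6 of 19 alternatives in all). In Cy5 alone the log2 ratio was -1.09 for SEC31A, -0.39 for SEC24B, -0.16 for SEC22C, -0.081 for SEC23A, -0.87 for COPB1, -0.59 for SRP54, 0.55 for SEC14L1, -0.71 for CNIH, -0.27 for HSPA5 and -0.14 for TRAPPC2. In Cy3 alone it was 0.32 for SPCS2, 0.36 for SSR1, 0.80 for SRP72, 1.15 for SRP19 and 0.23 for TMED10P. No paired analysis was possible because both RNAs of an array form 1 ratio and all arrays are 1 group.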
